A study of Mus musculus with 12 samples.

Results

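The CCL21/CCL19/CCR7 chemokine axis and the genes duplicated together with it on mouse chromosome 4 were followed in the cerebellum and hippocampus of mice that lack the homeobox of Engrailed 2. The group was defined as 8 genes, namely Ccl21a, Ccl21b, Ccl21c, Ccl19, Ccl27a, Il11ra1, Il11ra2 and Ccr7. All non-control array probes bearing one of these names were taken, which gave 7 probes for 5 of the 8 genes, out of 27056 gene names and 41174 probes on the array. The genes were chosen on measured values, because the En2-/- over WT difference of Ccl21a in these arrays led to the group, so genotype differences of the members are given as a description with no test.

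Total RNA of the entire cerebellum or hippocampus was labelled with Cy3 and hybridised to 12 single-colour Agilent mouse arrays, 3 for each of 4 groups: En2WT cerebellum, En2KO cerebellum, En2WT hippocampus and En2KO hippocampus. En2KO mice (En2-/-) are homozygous for an allele from which the homeobox was removed, and En2WT mice (WT) are their En2+/+ littermates. Both came from heterozygous matings and were 3 to 5 months old. Mice of both sexes were used, and the labels do not give the sex behind each array. The line arose on a mixed 129Sv x C57BL/6 and outbred background and was crossed at least 5 times into C57BL/6, a history that both genotypes share. The arrays came from 3 slides, each of which held all 4 groups, and the replicate number is the slide number. Both tissues were taken from 3 mice of each genotype, but which arrays share a mouse is not given in the labels, and the p-values below treat the arrays as independent samples.

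On each array 62.3% to 73.0% of the spots were well above background, a flag that the scanner software sets for each spot, and no spot was saturated. The 8 probes of 5 cerebellar marker genes averaged 15.34 to 15.63 in WT and 15.02 to 15.19 in En2-/- cerebellum (normalized log2 signal). In hippocampus they averaged 8.76 to 8.93 in WT and 9.01 to 10.02 in En2-/-, with En2-/- array 1 the highest. The 8 probes of 5 hippocampal marker genes averaged 9.85 to 10.20 in WT and 9.48 to 9.52 in En2-/- hippocampus. In cerebellum these averaged 7.49 to 7.81 in WT and 7.51 to 8.20 in En2-/-. Only these last ranges overlapped between genotypes. The 6 probes of choroid plexus markers averaged 11.78 on hippocampal En2-/- array 1, 7.41 on array 2 and 9.98 on array 3, against 9.77 to 11.09 in hippocampal WT. The En2 probe lies outside the deleted part of the gene and therefore says nothing about genotype, and its mean signal was 14.15 in WT and 14.46 in En2-/- cerebellum and 7.69 and 7.46 in hippocampus.

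CCL21 and CCL19 are secreted chemokines that act on the same receptor, CCR7, and are best known for guiding dendritic cells and naive T cells into lymph nodes. The mouse carries several near-identical copies of the Ccl21 gene: Ccl21a encodes a form with a serine at the variable residue and is the copy used in lymphoid organs, whereas the leucine form encoded by other copies is known from peripheral lymphatic vessels. The chemokine gene Ccl27a, whose product acts on CCR10 and is best known from skin, and the interleukin-11 receptor genes Il11ra1 and Il11ra2 lie in the same duplicated stretch of chromosome 4.

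The probes are shown first because what each of them can report depends on its sequence. Only the 5′ 30 of the 60 bases of each probe are given, in lower case, as the scanner files list them.
Ccl21a A_51_P129480: tggttcacggtccaactcacaggcaaagag
Ccl19 A_51_P458258: gtggctagaacaccatctctctgtggctag
Ccl19 A_51_P458262: ctcctgatgctctgtcccagacctaaccca
Ccl27a A_52_P618693: gctgtactcagctctatagacagccactcc
Il11ra1 A_51_P353947: tccgatgtcctgaggtggaagtccacctga
Il11ra1 A_51_P353946: agacagggagcaaaagttctctgcatgtgt
Ccr7 A_51_P420229: cttctagcttagagagatgtcccggagatt
The files place the Ccl21a probe at chr4:42231835-42231894 (mm9, plus orientation) and the Ccl19 probes at chr4:42250432-42250491 and chr4:42250352-42250411 (plus). The Il11ra1 probes are placed at chr4:41716152-41716211 and chr4:41716228-41716287 (plus), and the Ccl27a probe lies 476 bases beyond the second of them on the opposite strand, at chr4:41716763-41716822 (minus). The Ccr7 probe is on another chromosome, with 26 of its bases aligned at chr11:99005513-99005538 (minus). No annotation of the mm9 build was used here, so exon and UTR positions are not given.

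No probe carried the name Ccl21b, Ccl21c or Il11ra2, yet these genes were not outside the measurement. The files annotate the Ccl21a probe to 6 RefSeq transcripts in their newer and older gene lists together, and these belong to Ccl21a, Ccl21b, Ccl21c, Gm1987, Gm13304 and Gm10591, the last 3 being predicted genes of the same family. Both Il11ra1 probes are annotated to transcripts of Il11ra1, Il11ra2, Gm13305 and Gm2002, and the Ccl27a probe to transcripts of Ccl27a, Ccl27b, Gm13306 and Gm2506. Only the Ccl19 and Ccr7 probes are annotated to a single RefSeq gene. The signals named Ccl21a, Il11ra1 and Ccl27a below can therefore come from any of the listed copies. RefSeq (GRCm38.p6) has Ccl21a and Ccl19 on the minus strand and the copies Ccl21b, Ccl21d, Gm13304 and Gm10591 on the plus strand, so the plus orientation given to the probes does not show that the listed mm9 positions are those of Ccl21a and Ccl19 themselves.

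How alike Ccl21d, Gm13304 and Gm10591 are to Ccl21a near the start can be read from their promoters in RefSeq (GRCm38.p6). Ccl21b, Ccl21c and Gm1987 were not compared, and Ccl21d is not among the genes annotated to the Ccl21a probe. Promoters do not show how far the sequence under the probe is shared. The stretch from 123 to 94 bases before the annotated start of Ccl21a is shown, chosen for the number of differing bases it holds. It is aligned without gaps, with bases that differ from Ccl21a in capitals.
Ccl21a (chr4:42774085-42774114, minus): agctaggagctgactgtatgctcacactaa
Ccl21d (chr4:41903489-41903518, plus): agctaggagctgacCgtatgctcacactaa
Gm13304 (chr4:42114663-42114692, plus): agctaggagctgacCgCatgctcacactaa
Gm10591 (chr4:42611999-42612028, plus): agctaggagctgacCgCatgctcacactaa
Over the 299 bases that could be aligned around each start, Ccl21d differed from Ccl21a at 2 bases, and Gm13304 and Gm10591 at 3 bases each.

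Ccl21a was the member that separated the genotypes. In WT cerebellum its probe read 9.76, 10.86 and 9.14 on arrays 1 to 3 (normalized log2 signal), and in En2-/- cerebellum it read 3.43, 2.37 and 3.35. In WT hippocampus the values were 9.92, 10.99 and 9.83, and in En2-/- hippocampus 2.33, 2.33 and 3.33. All 6 WT arrays were well above background and 0 of 6 En2-/- arrays were, and no En2-/- array came near the lowest WT array in either tissue. On the scanner's linear scale the spot gave intensities of 408 to 2860 in WT cerebellum and 758 to 1635 in WT hippocampus, against 4.42 to 13.9 and 4.93 to 8.79 in the En2-/- tissues.

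**Figure D1:**
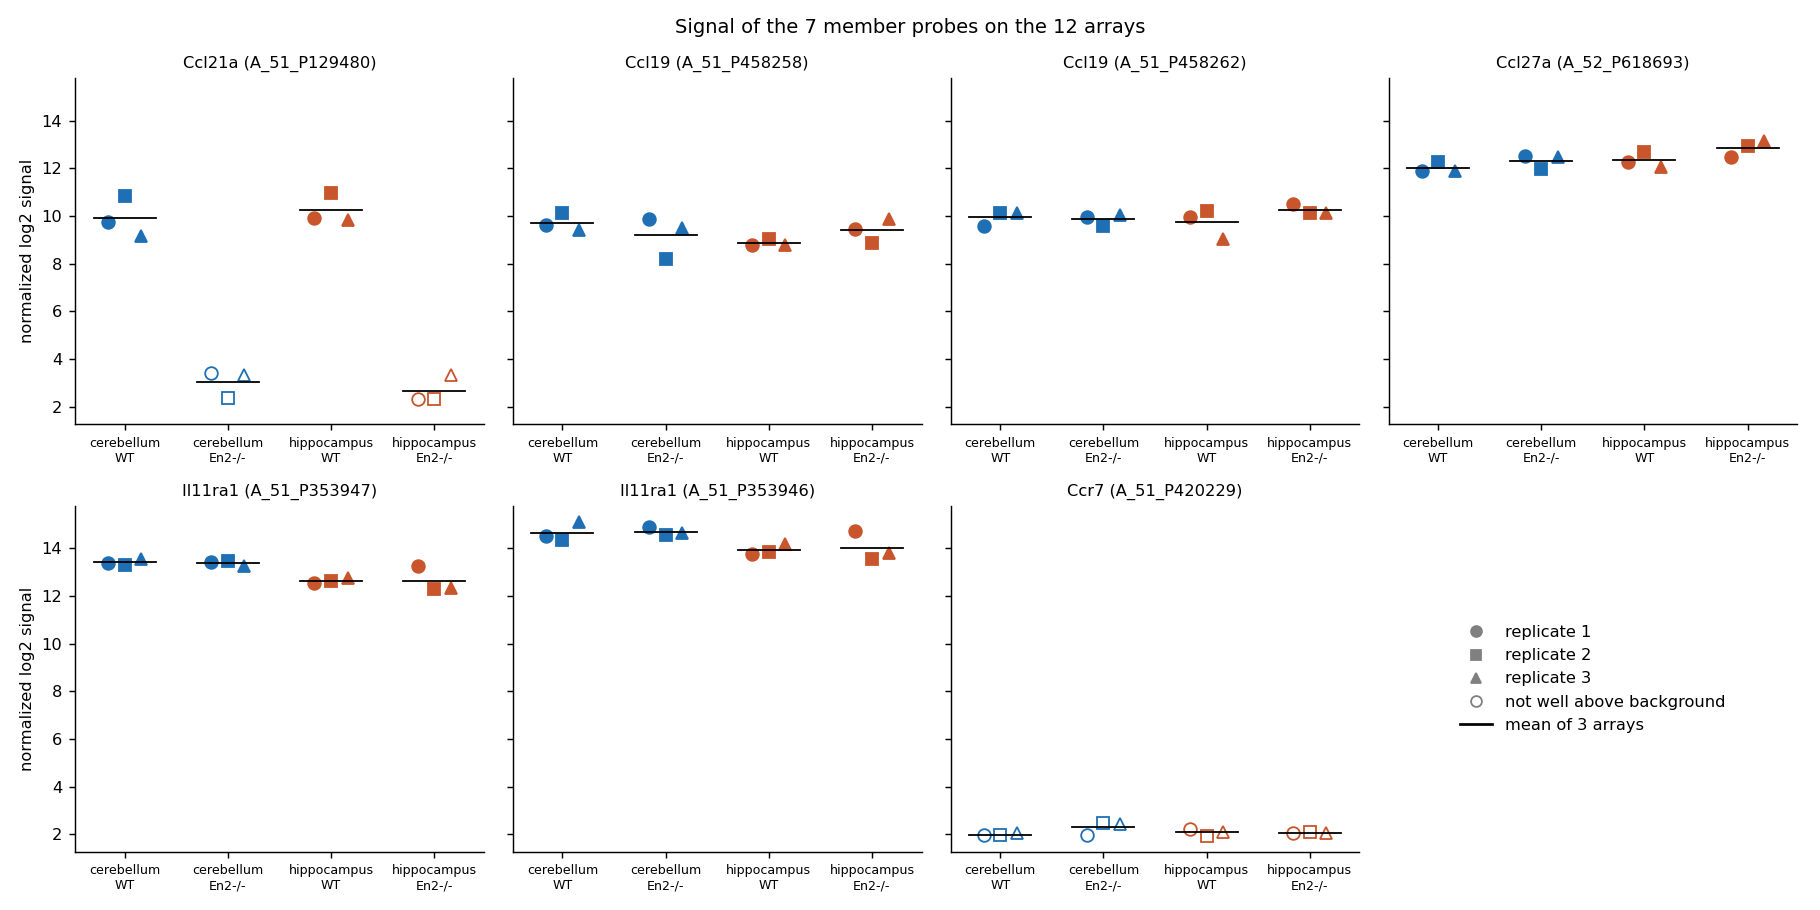
Normalized log2 signal (vertical axis) of the 7 member probes, 1 panel each, on the 12 arrays, grouped by tissue and genotype along the horizontal axis. Marker shape gives the replicate (slide) number, open markers are spots not well above background and lines are means of 3 arrays. Ccl21a is between 9.14 and 10.99 on the WT arrays and between 2.33 and 3.43, with open markers, on the En2-/- arrays, while the groups overlap for the other 6 probes in each tissue.

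The difference of the Ccl21a means, En2-/- minus WT, was -6.87 in cerebellum (SE 0.47, n = 3 and 3) and -7.58 in hippocampus (SE 0.39, n = 3 and 3) on the log2 scale. Within slides 1, 2 and 3 it was -6.33, -8.49 and -5.80 in cerebellum and -7.59, -8.66 and -6.50 in hippocampus, so the sign was the same on every slide. It was the lowest of the 27430 differences in cerebellum and the lowest of the 25674 in hippocampus. Because the probe was at background in En2-/- tissue, only a bound can be given. Against the dimmest signal still well above background on each En2-/- array, or the probe's own signal where higher, Ccl21a was at least 71.0-fold lower in En2-/- cerebellum and at least 47.0-fold lower in En2-/- hippocampus. These bounds hold for the scanner software's background correction. With an offset of 50 added to the intensities after normexp or local background subtraction, and in the authors' own processed values, the log2 difference was between -3.60 and -3.62 in cerebellum and between -3.96 and -3.98 in hippocampus. In whole tissue, fewer cells that express a gene and less RNA per cell cannot be told apart. The difference also rests on 1 probe. The number of gene copies and the sequence under that probe were not tested in these mice.

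Over all probes, the rank product method used by the study called 1251 of 27430 in cerebellum (4.56%) and 1090 of 25674 in hippocampus (4.25%). Every count of called probes in the lists below is to be read beside these shares. Of the 6 member probes bright enough to enter, Ccl21a is the 1 on both lists, a place that the choice of the group fixed, and no test is drawn from it. Ccr7 did not enter in either tissue.

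Ccl19, the other ligand of CCR7, was well above background on all 12 arrays with both probes. Probe A_51_P458258 read 9.63, 10.13 and 9.39 in WT cerebellum, 9.89, 8.18 and 9.49 in En2-/- cerebellum, 8.78, 9.04 and 8.81 in WT hippocampus and 9.46, 8.87 and 9.89 in En2-/- hippocampus. Probe A_51_P458262 read 9.59, 10.12 and 10.12, then 9.97, 9.59 and 10.05, then 9.96, 10.22 and 9.02, and last 10.49, 10.13 and 10.12 in the same groups. WT and En2-/- arrays overlapped in both tissues with both probes. The En2-/- minus WT difference was -0.53 (SE 0.44) and -0.07 (SE 0.24) in cerebellum and 0.53 (SE 0.27) and 0.51 (SE 0.31) in hippocampus (log2, n = 3 and 3). Both probes agreed only loosely over the 12 arrays (Pearson r = 0.40), which is a description of 12 values that share their arrays.

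Ccr7, the receptor of both ligands, was not detected. Its probe read 1.93 to 2.49 on the 12 arrays (normalized log2 signal), with intensities of 3.03 to 5.94 on the scanner's scale, and was well above background on 0 of 12 arrays. At these signals no genotype or tissue difference of Ccr7 was detectable.

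Il11ra1, the ligand-binding chain of the interleukin-11 receptor, overlapped between genotypes with both probes, whose values ran closely parallel over the arrays (Pearson r = 0.94, 12 arrays that share both values). Probe A_51_P353947 averaged 13.42 ± 0.13 (SD, n = 3) in WT and 13.38 ± 0.10 in En2-/- cerebellum, and 12.64 ± 0.10 in WT and 12.63 ± 0.57 in En2-/- hippocampus. Probe A_51_P353946 averaged 14.67 ± 0.40, 14.69 ± 0.18, 13.93 ± 0.23 and 14.03 ± 0.62 in the same groups. The En2-/- minus WT differences were -0.03 (SE 0.19) and 0.02 (SE 0.26) in cerebellum and -0.02 (SE 0.28) and 0.10 (SE 0.31) in hippocampus, within the spread of the arrays. The wider SD in En2-/- hippocampus came from array 1, which read 13.28 and 14.74 where the other arrays of the group read 12.28 to 12.32 and 13.56 to 13.79. That array also had the highest cerebellar and choroid plexus marker levels of its group, and their part in these values was not tested.

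Ccl27a read 11.89, 12.29 and 11.89 in WT cerebellum and 12.52, 11.97 and 12.48 in En2-/- cerebellum. In hippocampus it read 12.28, 12.67 and 12.07 in WT and 12.47, 12.94 and 13.13 in En2-/-. The groups overlapped in both tissues, with differences of 0.30 (SE 0.24) and 0.50 (SE 0.24).

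**Figure D2:**
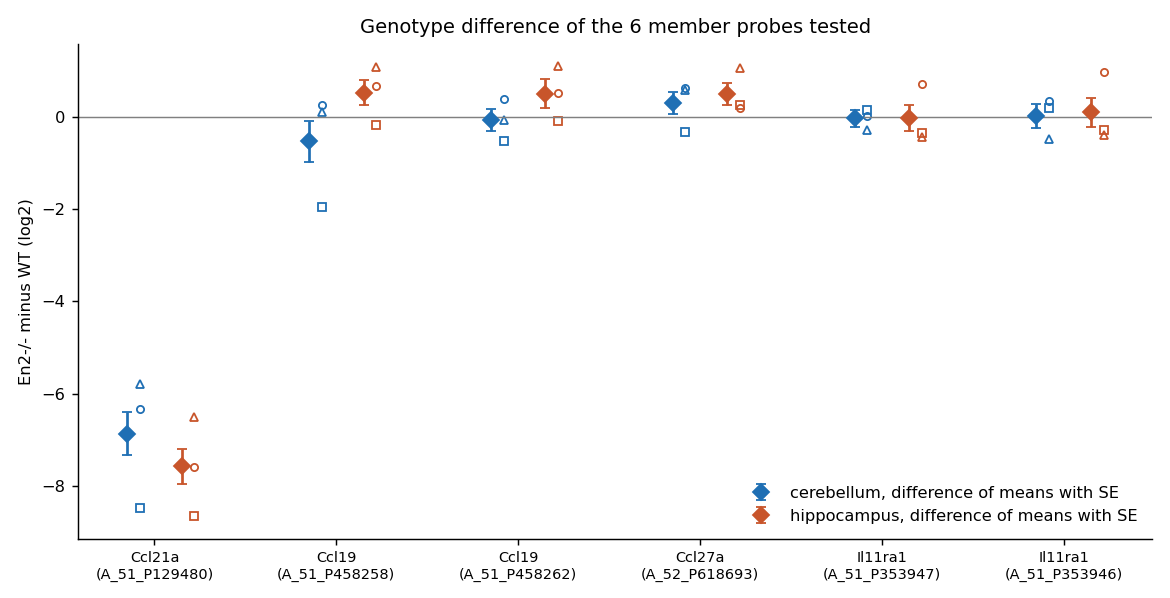
En2-/- minus WT difference in normalized log2 signal (vertical axis) of the 6 member probes that entered the comparison (horizontal axis), in cerebellum (blue) and hippocampus (orange). Diamonds are differences of group means with their SE, and small open circles, squares and triangles are the differences within slides 1, 2 and 3. Ccl21a is at -5.80 or lower on every slide, and the other means are between -0.53 and 0.53.

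None of the other member probes shared the genotype difference of Ccl21a. Over the 12 arrays the Pearson r of Ccl21a was 0.08 and -0.26 with the Ccl19 probes, -0.44 with Ccl27a and -0.0008 and -0.10 with the Il11ra1 probes, given as descriptions of values that share their arrays. Most of the spread of Ccl21a lies between genotypes, so r says little about arrays within a group. Within WT, array 2 read highest in both tissues for Ccl21a, both Ccl19 probes and Ccl27a, but not for the Il11ra1 probes. In En2-/- cerebellum array 2 read lowest for the same probes, Ccl21a being at background there.

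Among the neighbouring probes on chromosome 4, counted below, only a probe for Gm9615 was called lower in both tissues. Gm9615 is annotated in RefSeq as a pseudogene and listed 18.5 kb from the Ccl21a probe in mm9. It read 7.51, 8.46 and 6.19 in WT cerebellum, 4.33, 5.71 and 5.32 in En2-/- cerebellum, 8.34, 8.88 and 7.47 in WT hippocampus and 4.67, 5.17 and 5.29 in En2-/- hippocampus. No En2-/- array reached the lowest WT array of its tissue. In both tissues the WT arrays stood in the same order for Gm9615 and Ccl21a, with array 2 highest and array 3 lowest. The same order held in both tissues for Pop4 on chromosome 7, described below, so it is not particular to this neighbourhood. Gm9615 differed by -2.27 (SE 0.58) in cerebellum and -3.18 (SE 0.36) in hippocampus and was called by the rank product in both. Unlike Ccl21a it was still well above background on 2 of 3 En2-/- arrays of each tissue. It was called under 14 of the 15 other settings tried in each tissue, the exception being a filter that it could not pass.

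Within 1 Mb of the outermost chromosome 4 member probes lie 73 other probes for 47 gene names. In cerebellum 56 of them entered and 1 was called, Gm9615, with a median difference of -0.10 against -0.0041 over all probes tested. In hippocampus 57 entered and 2 were called, Gm9615 and Ubap1, with a median of 0.03 against 0.02. Over all probes tested the rank product called 4.56% in cerebellum and 4.25% in hippocampus. Ubap1, a subunit of the ESCRT-I sorting complex, differed by -2.23 (SE 1.54) in hippocampus. The call was kept under 7 of 15 other settings. Its value rests on En2-/- array 1, which read 1.92 where the other hippocampus arrays read 8.11 to 8.62, and without that array the difference was -0.08. The neighbours with the highest mean signal, Dctn3, a dynactin subunit, and Enho, which encodes the peptide adropin, differed by 0.08 and -0.13 in cerebellum and 0.24 and 0.10 in hippocampus, and neither was called.

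**Figure D3:**
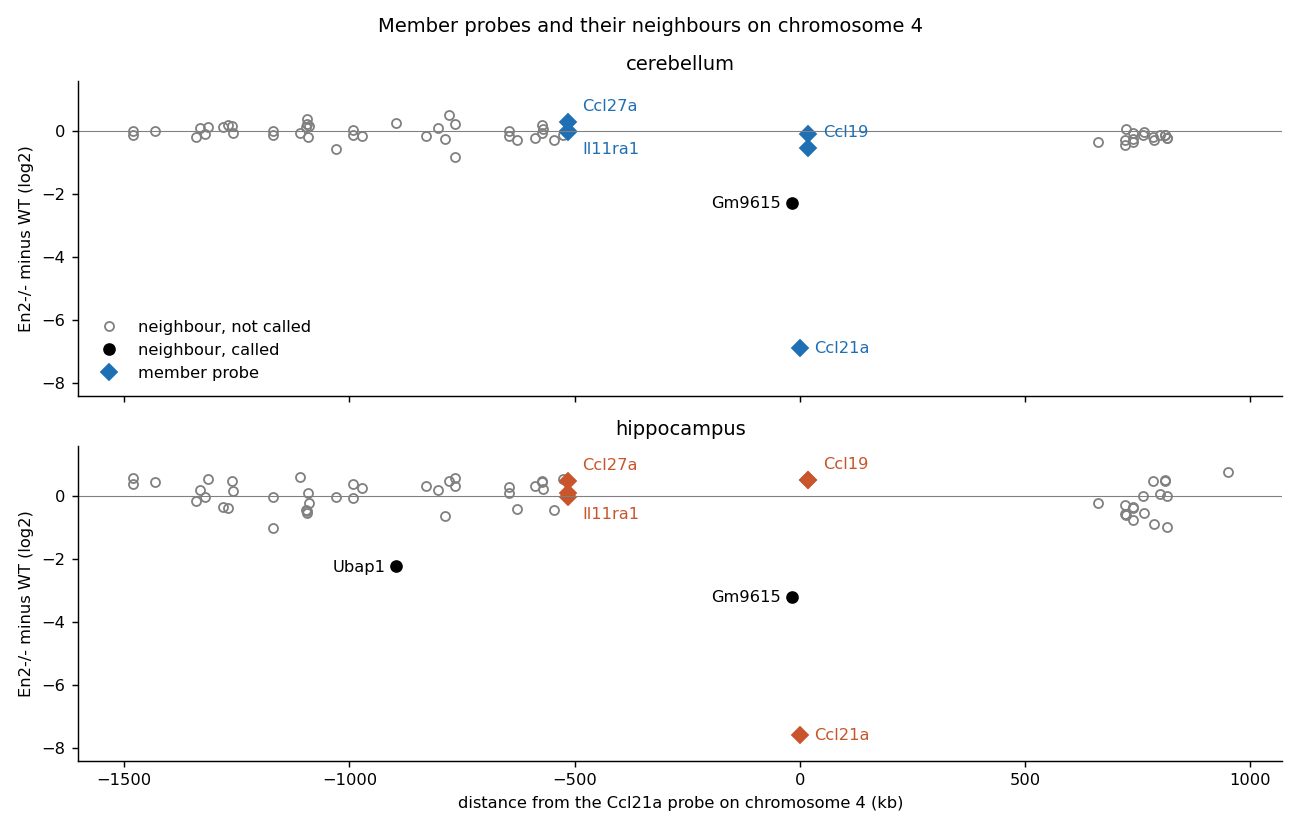
En2-/- minus WT difference in normalized log2 signal (vertical axis) against distance from the Ccl21a probe in kb (horizontal axis) for probes on chromosome 4, in cerebellum (upper panel) and hippocampus (lower panel). Coloured diamonds are member probes, filled black circles are neighbours called by the rank product and open circles are neighbours that entered and were not called. Around Ccl21a at -6.87 and -7.58 and Gm9615 at -2.27 and -3.18, the Ccl19 probes on the other side are between -0.53 and 0.53; Ubap1, at -2.23 in hippocampus, rests on 1 array.

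Tissue differences, which played no part in the choice of the genes, were tested with limma (Benjamini-Hochberg adjusted over all probes). In WT mice 6559 of 27393 probes differed between cerebellum and hippocampus (23.9%), and 2 of the 6 member probes that entered were among them. Il11ra1 probe A_51_P353947 was 0.77 higher in cerebellum on the log2 scale (SE 0.20, 95% interval 0.31 to 1.24, adjusted p = 0.0260), with no overlap between the arrays of the tissues. The other Il11ra1 probe was 0.74 higher (SE 0.27, 95% interval 0.13 to 1.34), also without overlap, but missed the threshold (adjusted p = 0.0794). Ccl19 probe A_51_P458258 was 0.84 higher in cerebellum (SE 0.25, adjusted p = 0.0414), again without overlap, while probe A_51_P458262 gave 0.21 with overlapping groups (95% interval -0.57 to 0.98, adjusted p = 0.695). Both calls lean on single arrays. The Ccl19 call was kept without cerebellar WT array 3 (limma, adjusted p = 0.0222) and was lost without any other of the 6 WT arrays (adjusted p = 0.0725 to 0.163). The Il11ra1 call was kept without cerebellar WT array 3 or hippocampal WT array 3 (adjusted p = 0.0448 and 0.0444) and lost without any of the other 4 (adjusted p = 0.0702 to 0.0928).

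Ccl21a itself did not differ detectably between WT cerebellum and WT hippocampus. The difference was -0.33 (95% interval -1.40 to 0.75, adjusted p = 0.655), and the arrays of the tissues overlapped. Ccl27a gave -0.32 (95% interval -0.88 to 0.24, adjusted p = 0.384).

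In En2-/- mice 6607 of 27084 probes differed between the tissues (24.4%), and none of the 5 member probes that entered was among them, Ccl21a being at background in both. Il11ra1 was again higher in cerebellum by 0.76 (adjusted p = 0.0989) and 0.66 (adjusted p = 0.175). Without hippocampal En2-/- array 1 these became 1.08 (adjusted p = 0.00930) and 1.01 (adjusted p = 0.0181) by limma, so that 1 array decided whether Il11ra1 passed. The Ccl19 probes gave -0.22 (adjusted p = 0.769) and -0.37 (adjusted p = 0.229), and Ccl27a gave -0.52 (adjusted p = 0.169). Across the array, 29 of 27922 probes (0.104%) had a genotype difference that itself differed between the tissues, and no member was among them. For Ccl19 probe A_51_P458258 this difference of differences was -1.06 (95% interval -2.30 to 0.17).

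**Figure D4:**
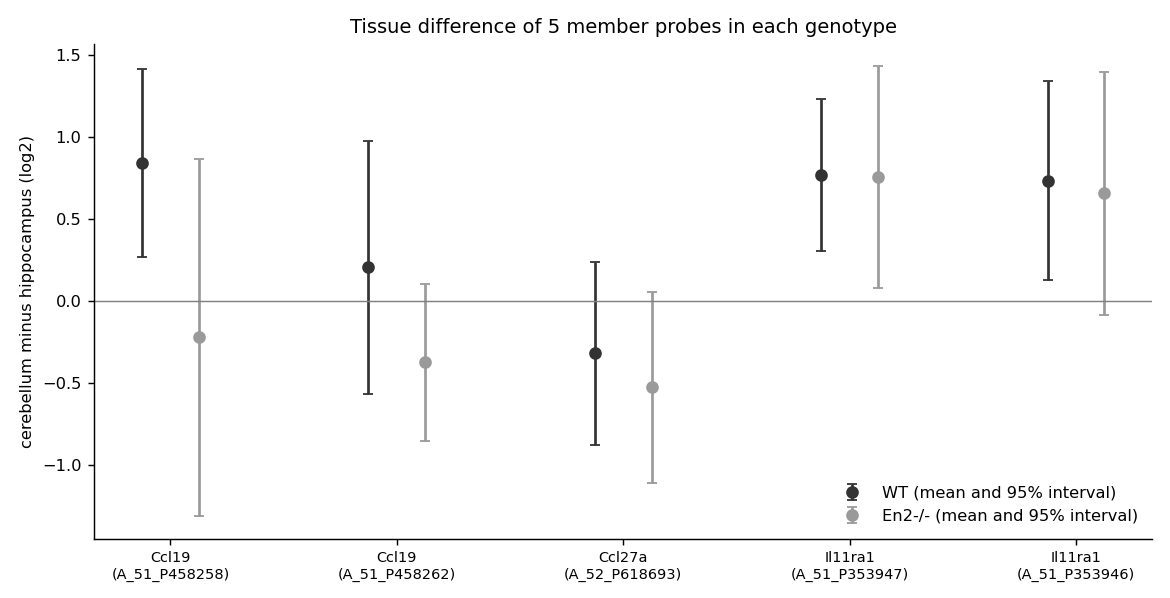
Cerebellum minus hippocampus difference in normalized log2 signal (vertical axis) of the 5 Ccl19, Ccl27a and Il11ra1 probes (horizontal axis) in WT (black) and En2-/- mice (grey), with 95% intervals from limma. Both Il11ra1 probes are between 0.66 and 0.77 in both genotypes, and Ccl19 probe A_51_P458258 is at 0.84 in WT and -0.22 in En2-/-.

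The rest of the chemokine family was examined beside the axis. Of the other chemokine ligands, 34 genes with 42 probes were on the array. In cerebellum 24 of these probes entered, 1 was called higher, 2 lower and 21 were not called, with a median difference of 0.02. In hippocampus 19 entered, 1 was called higher, 0 lower and 18 were not called, with a median of 0.39 against 0.02 over all probes. Cxcl11, a ligand of CXCR3, was 1.5 log2 units higher in En2-/- cerebellum (SE 0.25) from signals not well above background in WT, which makes it at least 2.24-fold higher with the scanner software's background correction. With normexp or local background subtraction the difference was 0.30 and the call was lost. Cxcl5, a neutrophil attractant, was 1.76 higher in En2-/- hippocampus (SE 0.36), and with these corrections and in the authors' processed values it was 0.70 to 0.72 higher and not called. Ppbp, a platelet chemokine, read 4.90, 5.47 and 5.69 in WT and 3.49, 3.40 and 4.54 in En2-/- cerebellum, without overlap and with a fitted difference of -1.54 (SE 0.36). Only 1 of the 3 En2-/- arrays was well above background for it, and with normexp, local subtraction or the authors' values the difference was -0.45 to -0.47 and was not called. In hippocampus Ppbp read 5.04, 4.51 and 4.71 in WT and 2.35, 2.33 and 3.01 in En2-/-, also without overlap. It did not enter there, being well above background on 2 of 3 WT and 0 of 3 En2-/- arrays. Of the 2 probes of the eosinophil attractant Ccl24, the dimmer was called lower in cerebellum at -1.02 (SE 0.36), at least 1.49-fold with the scanner software's correction, and the other differed by -0.64 and was not called. The call was kept under 8 of 15 other settings. It was lost with normexp, local subtraction and the authors' values, each at -0.19, and without cerebellar WT array 3 (-0.77), En2-/- array 2 (-0.83) or En2-/- array 3 (-0.84). The ligands with the highest mean signal, Cx3cl1, the neuronal ligand of the microglial receptor CX3CR1, and Cxcl14, differed by 0.03 and 0.17 in cerebellum and -0.01 and -0.68 in hippocampus, and neither was called.

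The other chemokine receptors were 22 genes with 31 probes, of which 12 entered in each tissue. In cerebellum 1 was called lower, Xcr1, a receptor of cross-presenting dendritic cells, with a difference of -1.21 (SE 0.42), a call lost without WT array 1 (-0.84) or WT array 2 (-1.07). In hippocampus 1 was called lower, Cx3cr1, the microglial fractalkine receptor, with -1.14 (SE 0.29). That call was kept under 9 of 15 other settings and was lost without WT array 1 (-0.94), WT array 3 (-1.12), En2-/- array 2 (-1.16) or En2-/- array 3 (-0.92). No other receptor was called in either tissue, and 13 of the 31 probes were at background on all 12 arrays. The receptors with the highest mean signal, the scavenging receptors Darc and Cxcr7, differed by -0.16 and 0.13 in cerebellum and -0.14 and 0.43 in hippocampus.

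**Figure D5:**
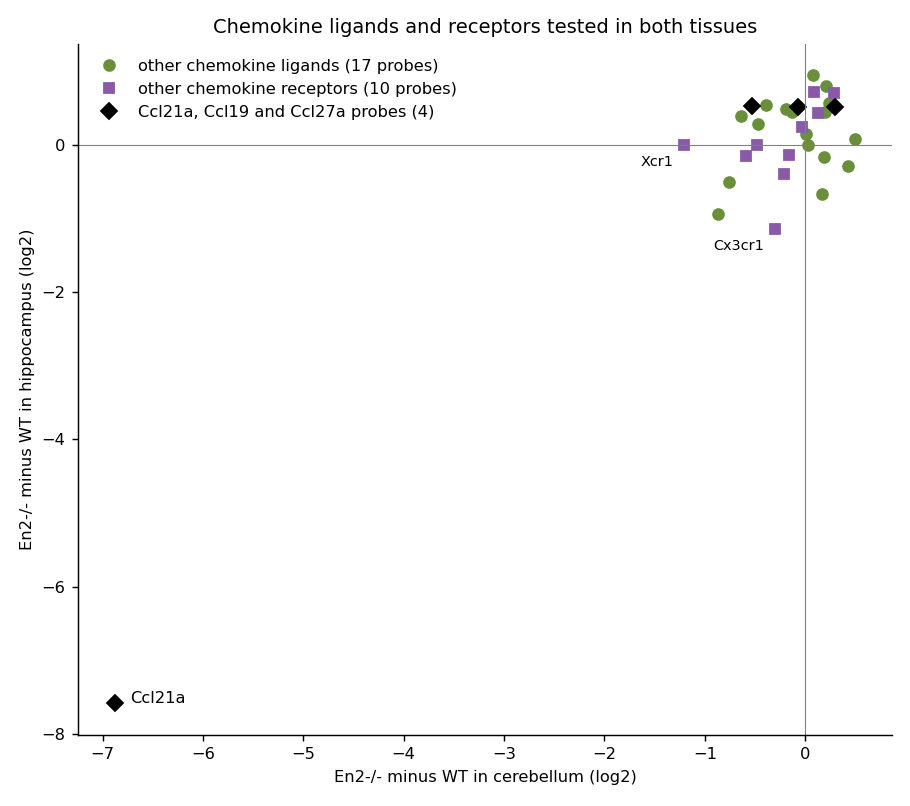
En2-/- minus WT difference in hippocampus (vertical axis) against the same difference in cerebellum (horizontal axis), both in normalized log2 signal, for 17 probes of other chemokine ligands, 10 of other chemokine receptors and the 4 probes of Ccl21a, Ccl19 and Ccl27a that entered in both tissues. Names mark Ccl21a and the probes called in either tissue. Ccl21a stands at -6.87 and -7.58, and the other points are between -1.21 and 0.50 in cerebellum and between -1.14 and 0.94 in hippocampus.

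Of the signals that are known to switch on lymphoid chemokines and guide lymphocytes to lymph nodes, 12 genes had 1 probe each, and 8 entered in each tissue. Lta, which encodes lymphotoxin alpha, was the 1 gene called, and it was higher in both. It read 3.13, 3.34 and 4.13 in WT and 5.55, 5.71 and 5.58 in En2-/- cerebellum, and 3.62, 4.28 and 3.88 in WT and 6.27, 7.15 and 7.17 in En2-/- hippocampus. The arrays of the genotypes did not overlap, and the differences were 2.08 (SE 0.29) and 2.94 (SE 0.29). The latter was at least 5.43-fold with the scanner software's background correction, and under the other settings tried it was as small as 1.18 (log2). In WT Lta was well above background on 1 of 6 arrays, and in En2-/- on 6 of 6. In cerebellum it was not called with normexp, with local background subtraction or from the authors' processed values, where the difference was 0.57 to 0.63. Ltbr, the lymphotoxin beta receptor, and Tnfrsf1a, a TNF receptor, had the highest mean signals of the list and differed by 0.11 and 0.56 in cerebellum and 0.43 and 0.26 in hippocampus, and neither was called.

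For interleukin-11 and the other cytokines that signal through gp130, 18 of 19 listed genes were named on the array with 30 probes. None of the 22 probes that entered in cerebellum and none of the 21 in hippocampus was called, with median differences of -0.14 and -0.10. Jak1 and Stat3, which relay these signals, had the highest mean signals and differed by -0.01 and 0.14 in cerebellum and 0.23 and 0.16 in hippocampus.

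Markers of cells that could carry CCL21 or its receptor were read beside Ccl21a. The 10 probes of lymphatic endothelial genes averaged 4.61 to 5.29 in WT and 4.83 to 5.48 in En2-/- cerebellum, and 5.89 to 6.04 and 5.65 to 5.95 in hippocampus (mean log2 signal of the list, range over 3 arrays). Of 6 that entered in each tissue, 0 were called in cerebellum and 1 in hippocampus, Lyve1, a hyaluronan receptor, which was 1.06 higher in En2-/- (SE 0.31). The other 5 differences in hippocampus were below 0, and the median of the list was -0.50. They were -0.13, -0.64 and -0.74 for the transcription factor gene Prox1 and -0.40 and -0.60 for the podoplanin gene Pdpn. The Prox1 probes also stand on the list of hippocampal markers, so in hippocampus they are not specific to lymphatic endothelium. The brightest of them averaged 12.14 in WT hippocampus and 9.71 in WT cerebellum. The Lyve1 call was kept under 7 of 15 other settings and was lost without WT array 1 (0.94), WT array 3 (1.14), En2-/- array 1 (0.85) or En2-/- array 3 (0.90). The 11 T cell probes averaged 2.98 to 3.82 over all arrays, with 6 of them at background on all 12 arrays, and the 5 B cell probes 3.35 to 4.71. In hippocampus the T cell mean was 3.33 to 3.43 in WT and 3.55 to 3.60 in En2-/-, without overlap. In cerebellum the T cell ranges of the genotypes overlapped. Of the 2 T cell probes that entered, Lck and Cd3e, none was called. Of the B cell genes Cd79b was called lower in hippocampus at -1.13 (SE 0.24), under 5 of 15 other settings too. The call was lost with normexp, local subtraction and the authors' values (-0.39 to -0.40), and without any WT array (-1.21 to -1.07) or without En2-/- array 2 (-0.88). The 11 dendritic cell probes averaged 5.67 to 5.90 in WT and 5.35 to 5.67 in En2-/- cerebellum and 4.46 to 4.76 and 4.37 to 4.85 in hippocampus. The dendritic cell gene called was Xcr1, given above.

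The lists for other cells that a dissection could hold were read in the same way. In hippocampus the mean level of blood endothelium was 7.51 to 7.75 in WT and 7.19 to 7.29 in En2-/-. That of microglia was 9.14 to 9.51 and 8.78 to 9.01. In cerebellum it was 7.91 to 8.45 and 8.49 to 8.75 for meninges and fibroblasts, and 9.21 to 9.39 and 9.52 to 9.67 for choroid plexus. These ranges did not overlap between genotypes, while those of the same lists in the other tissue did. Of the 8 blood endothelial probes that entered, none was called in cerebellum and 1 was in hippocampus, Cldn5, a tight junction protein, at -1.07 (SE 0.24), where all 8 differences were below 0. The Cldn5 call was kept under 5 of 15 other settings and was lost whichever of the 6 arrays was left out (-1.22 to -0.82). Of the 9 probes for meninges and fibroblasts, 2 were called higher in cerebellum, both for the growth factor Igf2, at 1.32 (SE 0.24) and 0.99 (SE 0.27). The first of these was kept under all 15 other settings, and the second was kept only without WT array 1 when 1 array was left out (0.76 to 1.23). In hippocampus 1 was called lower, a dim probe of the collagen gene Col1a1, at -1.30 (SE 0.33), while a brighter Col1a1 probe differed by -0.17 and was not called, and 5 of the 9 differences of the list were above 0. The Col1a1 call was kept under 8 of 15 other settings, with -0.39 to -0.42 where normexp, local subtraction or the authors' values lost it, and it was also lost without WT array 1 (-0.98), WT array 2 (-1.31) or En2-/- array 2 (-1.10). Of the microglial probes 1 of 9 was called in cerebellum, a Csf1r probe at -0.90 (SE 0.18), and 1 of 8 in hippocampus, the Cx3cr1 probe given above. In hippocampus 6 of the 8 differences were below 0. The 2 above 0 were the Aif1 probes, at 0.59 (SE 0.19) and 0.36 (SE 0.20), and neither was called. The Csf1r call was kept under 3 of 15 other settings and was lost whichever array was left out (-0.93 to -0.89), and with normexp the difference was -0.21. Both brighter Csf1r probes differed by -0.30 and -0.40 in cerebellum and were not called. Of the 6 choroid plexus probes 2 were called lower in hippocampus, Ttr at -1.26 (SE 1.07) and Kl at -1.04 (SE 1.04), and without En2-/- array 2 the differences were 0.11 and 0.20. The Ttr call was kept under 10 of 15 other settings and the Kl call under 4. Leaving out WT array 2 (-1.05) or WT array 3 (-1.10) also ended the Ttr call, and leaving out any WT array (-1.36 to -0.59) the Kl call. Of the cerebellar markers 4 of 6 probes that entered were called higher in hippocampus, both Zic1 probes and 1 each of Cbln1 and Pcp2. The called probe of Pcp2, a Purkinje cell gene, differed by 1.16 (SE 0.37), a call kept under 9 of 15 other settings. It was lost without WT array 3 (1.10) or En2-/- array 1 (0.70). A brighter Pcp2 probe differed by 0.31 (SE 0.29) and was not called. None of the 8 cerebellar marker probes was called in cerebellum, and none of the hippocampal markers was called in either tissue. Whether any of these cell types bears on Ccl21a was not tested.

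Across the array, the probes whose values over the 12 arrays were most like those of Ccl21a were, in order of Pearson r, Tmem117 (0.986), D430006K04 (0.985), Gm5148 (0.977), Pop4 (0.977) and TC1634701 (0.977), among 27135 named probes that were well above background on every array of 1 group or more. They lie on chromosomes 15, 17, 3, 7 and 9 in the files' mm9 positions, none on chromosome 4. Tmem117, a membrane protein gene, averaged 6.41 in WT and 1.84 in En2-/- cerebellum and 6.02 and 1.91 in hippocampus, at least 6.23-fold and 2.51-fold lower because it was not well above background in En2-/-. Gm5148, likewise at background in En2-/-, averaged 7.77 and 2.26 in cerebellum and 7.65 and 2.91 in hippocampus, at least 15.97-fold and 7.80-fold lower. The bounds for Tmem117 and Gm5148 hold for the scanner software's background correction. Under the other settings tried, the log2 difference of Tmem117 was as small as -1.38 in cerebellum and -1.11 in hippocampus. That of Gm5148 was as small as -1.89 and -1.72. Pop4, a subunit of ribonuclease P, averaged 12.66 and 10.55 in cerebellum and 12.44 and 10.68 in hippocampus, with all 12 arrays well above background. The lowest values belonged to NAP032887-1 (-0.974), Fn3krp (-0.972), a kinase that repairs glycated proteins, and Zfp236 (-0.971), which were higher on all En2-/- arrays. Ccl21a was 1 of many probes split by genotype in this way. Of the same 27135 probes, 425 (1.57%) were higher on every WT than on every En2-/- array in both tissues, and 358 (1.32%) were lower.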

How the data were processed

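The authors deposited, for each array, the intensities of every spot from Agilent Feature Extraction 10.7.3.1 (a processed signal corrected for background within the array, the raw mean and the local background), and a table of processed log2 values. Per the study's methods that table was quantile normalized. Here the processed intensities, without outlier spots, were log2 transformed and quantile normalized over the 12 arrays, and repeated spots of a probe were averaged. A probe entered a comparison where every array of 1 or both of the groups compared was well above background for it. En2-/- was compared with WT in each tissue by the rank product over 9 ratios with 100 permutations, at P under 0.01 in cerebellum and 0.005 in hippocampus as in the study, where missing spots took the group mean. Standard errors, tissue comparisons and the difference of differences came from limma 3.58.1 in R 4.3.3 (Benjamini-Hochberg, adjusted p under 0.05), after a check on simulated data.

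The members and lists were chosen with earlier results of these data known. Named genes were all member probes, En2, the 5 probes most and 3 least like Ccl21a, and in each list and around the locus up to 5 called genes and the 2 with the highest mean signal. The number of arrays limits the precision. RefSeq matched all 19 transcripts annotated to the members. Replicate numbers were not used as pairs in the main fits. The correlation of arrays' deviations from their group means ranged from -0.21 to 0.39 for the same number. For different numbers it ranged from -0.41 to 0.32. These ranges do not show that pairing was unneeded, and fits with the replicate number as a block are given below.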

Additional observations from a re-analysis of the deposited data

How the results depend on the processing

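Under all settings tried, Ccl21a was lower in En2-/-: leaving out 1 array gave -7.26 to -6.40 in cerebellum and -7.91 to -7.21 in hippocampus, and the scaling by the 75th percentile, quantiles within a tissue, kept outlier spots and the replicate block moved it by less than the spread between arrays; it could not pass a filter for signal above background on every array. An offset of 50 narrows differences from dim signals by construction, and gave -3.62 and -3.98 with normexp and -3.61 and -3.96 with local background subtraction; the authors' processed values gave -3.60 and -3.96. Rank product calls ranged from 932 to 1517 in cerebellum and 794 to 1015 in hippocampus without 1 array, and were 276 and 313 at a percentage of false prediction under 0.05. By limma 153 probes differed between genotypes in cerebellum and 544 in hippocampus. These were 65 to 128 and 98 to 384 without 1 array, 66 and 185 with no filter on dim probes, 90 in cerebellum with probes above background on every array, and 146 in hippocampus with the replicate block. Tissue calls were 4292 to 7310 in WT and 3710 to 6689 in En2-/- without 1 array. In WT 3380 probes were higher in cerebellum and 3179 lower, against 6629 and 2152 with quantiles within a tissue and 3957 and 2781 with the 75th percentile; in En2-/- 3457 and 3150 became 6693 and 2008 with quantiles within a tissue. Differences of differences were 29, against 12 to 60 without 1 array, 13 from the authors' values, 10 above background on every array and 17 with the replicate block. The replicate block changed no call of a member probe between tissues. The sign turned for Ccl19 probe A_51_P458258 between En2-/- tissues (0.0739 with quantiles within a tissue, -0.57 to 0.28 without 1 array) and for the near-zero difference of differences of Il11ra1 probe A_51_P353947 (0.0451 with normexp and 0.0451 with local subtraction, 0.034 from the authors' values, -0.19 to 0.31 without 1 array). Without 1 array it also turned for Ccl21a between WT tissues (-0.79 to 0.0619), Ccl19 probe A_51_P458262 between WT tissues (-0.15 to 0.45), the difference of differences of Il11ra1 probe A_51_P353946 (-0.31 to 0.27), and Ttr (-2.32 to 0.11) and Kl (-2.16 to 0.20) in hippocampus. The cause of the other shifts was not tested. The Ccl19 call between WT tissues was lost with normexp, local subtraction and no filter, and Il11ra1 probe A_51_P353946 passed in WT with normexp, local subtraction and quantiles within a tissue, as did probe A_51_P353947 in En2-/- with quantiles within a tissue. The authors' values were normalized separately for each tissue and were not used between tissues. Gene names of the hippocampus files gave the same 7 probes.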
